A study of Mus musculus with 8 samples.

Results

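The Hox cluster genes were examined in mouse wound skin, in a table of gene counts from RNA sequencing of 8 samples. Every gene whose symbol began with Hoxa, Hoxb, Hoxc or Hoxd followed by a number was taken, which gave 35 genes of 18540 in the table. Of these, 10 belonged to the Hoxa cluster, 9 to Hoxb, 9 to Hoxc and 7 to Hoxd. Hoxa13, Hoxb13, Hoxd11 and Hoxd12 were not analysed here. The 4 control samples and the 4 Z1C2Z samples came from skin of mouse wounds, with a pair of full-thickness wounds 10 mm wide made on the back of each mouse. The methods describe the control as phosphate buffered saline. Z1C2Z is a formulation of ZCZ, a composite of zinc peroxide, cerium oxide and the zeolitic imidazolate framework ZIF-8, a metal organic framework, and wounds were treated with it for 15 days before sampling. The study made wounds in C57BL mice and in diabetic db/db mice, and the strain and age of the mice that were sequenced were not given in the sources used here. The labels did not say whether samples came from separate mice, so p-values measured only the spread between these samples.

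Hox genes encode transcription factors that bind DNA through the homeodomain, and they lie in 4 clusters. The order of the genes along a cluster, given by the paralog number, follows the order of the body regions in which they act in the embryo, from head (low numbers) to tail (high numbers). Adult skin keeps part of this position code, above all in dermal fibroblasts, so back skin carries a characteristic set of Hox transcripts. Hoxc13 has a further role outside this code: it is expressed in the matrix and shaft of the hair follicle, acts on hair keratin genes, and is required for normal hair.

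4 Hox genes differed between the groups (below), and the homeobox of 3 of them is printed to show how far apart their sequences are, since reads can be told apart only where the sequences differ. Each sequence is the 180 bases that encode the homeodomain, read 5′ to 3′ on the coding strand from GRCm38 with the GENCODE M21 annotation, and each lay in exon 2 of 2. The capitals mark the 18 bases that encode the core of the recognition helix, which sits in the major groove of DNA. The positions were chr15:102927210-102927389 on the plus strand for Hoxc13, chr11:96300689-96300868 on the plus strand for Hoxb6 and chr6:52202632-52202811 on the minus strand for Hoxa5.
Hoxc13: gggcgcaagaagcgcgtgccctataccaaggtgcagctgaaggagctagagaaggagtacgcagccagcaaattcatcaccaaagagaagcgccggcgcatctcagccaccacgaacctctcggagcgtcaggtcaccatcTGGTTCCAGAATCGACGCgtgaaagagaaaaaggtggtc
Hoxb6: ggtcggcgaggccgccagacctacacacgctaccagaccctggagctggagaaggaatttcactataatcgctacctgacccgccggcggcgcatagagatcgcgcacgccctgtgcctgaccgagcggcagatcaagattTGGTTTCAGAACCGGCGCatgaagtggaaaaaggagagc
Hoxa5: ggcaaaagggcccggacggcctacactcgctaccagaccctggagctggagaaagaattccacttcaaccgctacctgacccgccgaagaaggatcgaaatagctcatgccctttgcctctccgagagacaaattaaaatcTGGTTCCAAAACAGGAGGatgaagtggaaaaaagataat
The Hoxc13 homeobox shared 54.4% of its bases with Hoxb6 and 48.3% with Hoxa5. Its nearest relative among the 35 genes was Hoxd13, at 75.0%. Over its whole coding sequence, the longest run of bases that Hoxc13 shared with any other member was 19 bases. The other called genes had closer relatives. The nearest relative of Hoxb6 was Hoxb7, at 88.9%, and that of Hoxa5 was Hoxb5, at 83.9%. Their longest shared coding runs were 37 and 32 bases. Hoxb3, the called gene whose homeobox is not printed, shared 93.9% with its nearest relative, and its longest shared coding run was 47 bases. Hoxa5 and Hoxb6 shared 75.0% of the homeobox, and the identity of any pair ranged from 46.1 to 93.9%. Across the 35 genes the longest shared coding run ranged from 17 to 52 bases.

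Library totals ran from 28856790 to 38974888 counts. Values below are CPM, the counts scaled to library size by the TMM method (CPM as edgeR gives it). Levels of different Hox genes are ranked as CPM per kb of exon, or of coding length where stated. Sums, shares, count ratios and the choice of genes to print use CPM or counts without length. A low-count filter left 15147 genes, 29 of them Hox genes, and a gene was called at an adjusted p under 0.05 in the quasi-likelihood test of edgeR, with p-values adjusted over all genes tested by Benjamini and Hochberg's method. The dermal markers Dcn and Lum and the keratinocyte markers Krt5 and Krt14 were abundant in both groups. In bulk tissue, fewer cells of a type and less RNA per cell cannot be told apart.

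In control wounds the Hox genes of the middle of the clusters had the highest levels. Per kb of exon, Hoxd8 stood first at 14.0 ± 0.641 CPM per kb (SD, n = 4), followed by Hoxc8 at 11.3 ± 1.27 CPM per kb, Hoxc6 at 7.52 ± 0.279 CPM per kb, Hoxb7 at 7.06 ± 1.21 CPM per kb and Hoxc13 at 6.18 ± 2.66 CPM per kb. Hoxc8 and its neighbours act in the thoracic trunk. Hoxc6, Hoxb7 and Hoxc13 differed by less than the SD of Hoxc13, so their order was not resolved. With coding length in place of exon length, Hoxc8 and Hoxd8 tied at 44.2 CPM per kb, and the same 5 genes stayed at the top. The tested genes of paralogs 9 to 13, apart from Hoxc13, ranged widely. Hoxa10 was the lowest of them at 0.206 ± 0.0774 CPM per kb, followed by Hoxc10 at 0.212 ± 0.137 CPM per kb. Hoxd9 was the highest of them at 2.02 ± 0.124 CPM per kb. In Z1C2Z wounds Hoxc13 stood first at 26.6 ± 10.6 CPM per kb, ahead of Hoxd8 at 13.7 ± 0.944 CPM per kb and Hoxc8 at 12.7 ± 0.558 CPM per kb.

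**Figure D1:**
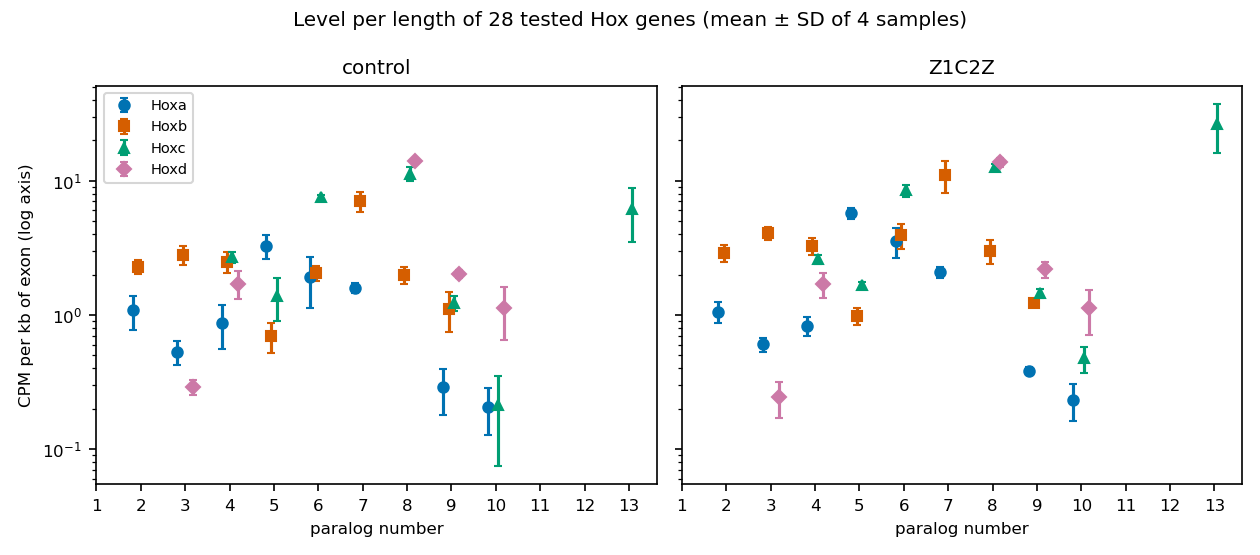
Level of 28 of the 29 tested Hox genes as CPM per kb of exon (log axis) against paralog number, in control (left) and Z1C2Z wounds (right), with symbols for the cluster and bars for the SD of 4 samples. Paralogs 6 to 8 hold the highest levels in control, and Hoxc13 moves from 6.18 to 26.6 CPM per kb.

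6 members did not pass the filter. Hoxb1, the most anterior Hoxb gene, had 0 counts in all 4 control libraries, which allows up to 0.0214 CPM over the 140509434 control counts, and 1, 3, 7 and 3 counts in Z1C2Z. Hoxd1 had 1, 1, 2 and 1 counts in control and 1, 7, 1 and 4 counts in Z1C2Z. Hoxc12 had 2 counts over all control libraries and 7 over all Z1C2Z libraries. Hoxa11, Hoxc11 and Hoxd13 had at most 2 counts in any library. Limits of this kind cover counting error only.

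The comparison of Z1C2Z with control asked whether the treatment changed transcription in the wound. Hoxc13, Hoxb6, Hoxa5 and Hoxb3 rose, and no Hox gene fell. The 4 called genes were 13.8% of the 29 tested, where 4.28% of all 15147 genes tested were called higher, 3.85% lower and 8.13% in either direction. DESeq2, which called more genes of the whole table than edgeR in both directions (counts below), called 6 Hox genes higher and 0 lower. At an unadjusted p under 0.05 edgeR gave 11 higher (37.9%, against 12.8% of all genes) and 0 lower (15.2% of all genes). All 4 calls depended on single libraries: when control-5 was left out, or any one of the Z1C2Z samples 1, 2 and 4, no Hox gene and no gene of the table was called, while 8 or 9 Hox genes had an unadjusted p under 0.05, all higher. With control-2 left out only Hoxa5 was called. The median log2 fold change of the 29 genes was 0.23, where that of all genes was 0.01, and 21 of 29 (72.4%) were above 0, where 51.1% of all genes were. In 7 members (24.1%) every Z1C2Z sample lay above every control sample, where 8.45% of all genes showed this, and in 0 members every Z1C2Z sample lay below, where 8.82% of all genes did.

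**Figure D2:**
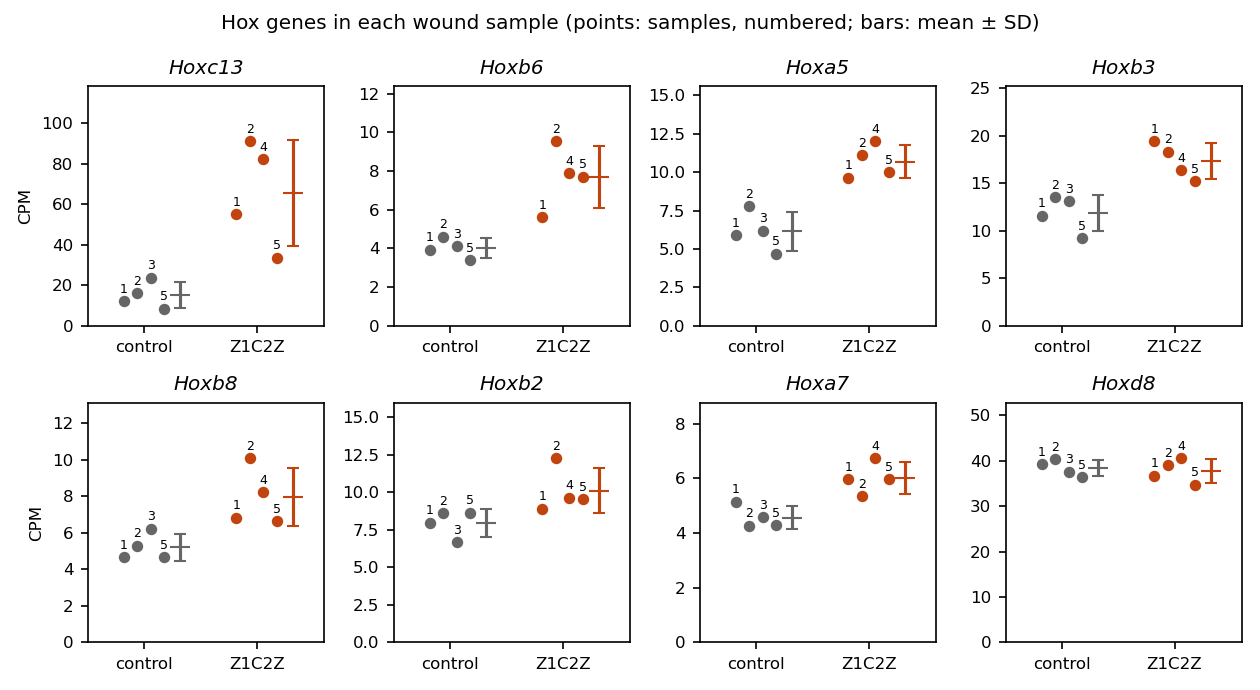
CPM of 8 Hox genes in each wound sample (points, numbered as in the labels), with the mean and SD of 4 samples at the side of each group and each vertical axis starting at 0. The 7 genes whose groups do not overlap are followed by Hoxd8, which lies between 34.7 and 40.6 CPM in all samples.

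Hoxc13 (Entrez 15422, chr15:102921103-102928814, plus strand), the hair follicle member, was measured at 12.3, 16.1, 23.8 and 8.53 CPM in the controls, here and below in the order of their numbers 1, 2, 3 and 5. In the Z1C2Z samples, numbered 1, 2, 4 and 5, it was at 55.1, 91.0, 82.2 and 33.7 CPM. Every Z1C2Z sample was above every control, with Z1C2Z-2 and Z1C2Z-4 the highest and Z1C2Z-5 the nearest to the controls. The means were 15.2 ± 6.54 and 65.5 ± 26.1 CPM (SD, n = 4), and the change was 2.11 on the log2 scale (SE 0.38; edgeR adjusted p = 0.0299). The exact two-sided permutation test gave p = 0.0286, the smallest that 70 arrangements can give. Without Z1C2Z-2 and Z1C2Z-4 the log2 fold change was 1.55 with an edgeR adjusted p of 0.28. It was the only Hox gene called with a log2 fold change over 1, where 2.15% of all genes met that rule in the higher direction and 1.25% in the lower. Within the libraries, Hoxc13 took 4.73 to 11.0% of all Hox counts in control and 13.3 to 27.4% in Z1C2Z. Its count was 0.316 to 0.696 times that of Hoxc8 in control and 0.902 to 2.66 times in Z1C2Z.

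Hoxb6 (Entrez 15414, chr11:96292476-96301569, plus strand), a trunk gene of the middle of the Hoxb cluster, was at 3.94, 4.61, 4.13 and 3.38 CPM in control and 5.61, 9.53, 7.88 and 7.71 CPM in Z1C2Z. The controls lay close together, Z1C2Z-2 was highest, and the groups did not overlap. The log2 fold change was 0.94 (SE 0.19; edgeR adjusted p = 0.0303). Hoxa5 (Entrez 15402, chr6:52201754-52204587, minus strand), known for its part in the development of the lung and the neck vertebrae, had 166, 281, 225 and 167 counts in control and 342, 429, 476 and 361 counts in Z1C2Z, or 6.15 ± 1.27 and 10.7 ± 1.05 CPM (SD, n = 4). The groups were again apart, and the Z1C2Z samples were closer to one another than for Hoxc13. The log2 fold change was 0.80 (SE 0.17; edgeR adjusted p = 0.0319). Hoxb3 (Entrez 15410, chr11:96323326-96347930, plus strand), a gene of the hindbrain and throat region in the embryo, was at 11.6, 13.5, 13.1 and 9.24 CPM in control and 19.4, 18.3, 16.4 and 15.2 CPM in Z1C2Z. Control-5 was the lowest and the groups did not overlap. The log2 fold change was 0.55 (SE 0.14; edgeR adjusted p = 0.0498), and 2 of 14 alternatives called it. Of the 4251 exon bases of Hoxb3, 2250 lie opposite the antisense gene Hoxb3os, and the strand setting of the counting was not given in the sources used here, so reads of the pair cannot be told apart with certainty.

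3 further genes had groups that did not overlap without passing the test. Hoxb8, whose loss in mice leads to excessive grooming, was at 4.65, 5.30, 6.22 and 4.65 CPM in control and 6.82, 10.1, 8.21 and 6.65 CPM in Z1C2Z. Its log2 fold change was 0.61 (SE 0.18; edgeR adjusted p = 0.0666). Hoxb2, a hindbrain gene, was at 7.99, 8.63, 6.67 and 8.65 CPM in control and 8.91, 12.3, 9.64 and 9.54 CPM in Z1C2Z. The lowest Z1C2Z value was just above the highest control, with a log2 fold change of 0.34 (SE 0.15; edgeR adjusted p = 0.167), and 953 exon bases lie opposite Hoxb3os. Hoxa7, a trunk gene, was at 5.15, 4.27, 4.57 and 4.28 CPM in control and 5.98, 5.36, 6.75 and 5.96 CPM in Z1C2Z. Its log2 fold change was 0.40 (SE 0.14; edgeR adjusted p = 0.109), and 586 exon bases lie opposite Hoxaas3.

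By cluster, Hoxb had the highest median change. All 8 tested Hoxb genes had a log2 fold change above 0, with a median of 0.52, and 2 of the 8 were called. The summed Hoxb level was 45.8 to 53.9 CPM in control and 65.3 to 89.3 CPM in Z1C2Z, with no overlap. Of 9 tested Hoxa genes, 6 were above 0, with a median of 0.19 and 1 call. The summed Hoxa level was 20.2 to 24.9 CPM in control and 29.9 to 33.0 CPM in Z1C2Z, also with no overlap. Of 7 tested Hoxc genes, 6 were above 0, and Hoxc13 was the one called. Without it the summed Hoxc level was 56.2 to 68.7 CPM in control and 69.8 to 75.6 CPM in Z1C2Z, again with no overlap. The median log2 fold change without it was 0.20.

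Hoxd stood apart from this, as values only. Of 5 tested Hoxd genes, 1 was above 0, the median was -0.02, and neither edgeR nor DESeq2 called any, with 0 at an unadjusted p under 0.05 in edgeR. Hoxd8, which carries most of the Hoxd signal, was at 39.2, 40.3, 37.6 and 36.3 CPM in control and 36.7, 39.0, 40.6 and 34.7 CPM in Z1C2Z. The groups overlapped over nearly their whole range. The log2 fold change of Hoxd8 was -0.02 (SE 0.08; edgeR adjusted p = 0.88). Hoxd3 and Hoxd4 share exon bases on the same strand with each other and with Gm28230, 2613 of 4191 bases in Hoxd3 and 1542 of 2948 in Hoxd4, so the values of these genes are uncertain. The summed Hoxd level was 49.1 to 54.9 CPM in control and 45.6 to 54.0 CPM in Z1C2Z. The Hoxd members included no paralog 5, 6 or 7, for which the median log2 fold changes over the tested genes were 0.49, 0.88 and 0.52. No test of the difference between clusters was made.

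**Figure D3:**
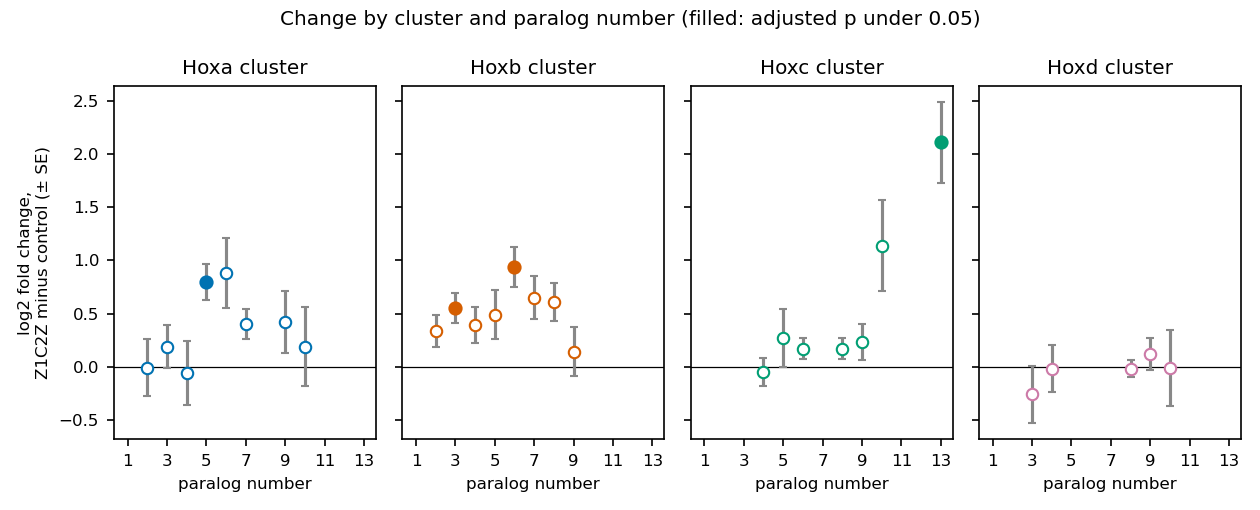
Log2 fold change of Z1C2Z minus control with its SE for 28 of the 29 tested genes against paralog number, with a panel for each cluster and filled symbols for genes with an adjusted p under 0.05. The 8 Hoxb genes all lie above 0, the 5 Hoxd genes lie between -0.26 and 0.12, and Hoxc13 is highest at 2.11.

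The shares of the clusters within each library do not depend on the normalization. Among Hox counts other than Hoxc13, Hoxb held 26.5 to 27.3% in control and 29.8 to 37.0% in Z1C2Z, and Hoxd held 25.4 to 28.8% in control and 20.8 to 23.3% in Z1C2Z. Neither range overlapped with its counterpart. The shares of a library sum to a fixed total, so a higher share of some clusters means a lower share of others. The summed Hoxd level itself overlapped between the groups (above). The share of Hoxa was 11.8 to 12.6% against 12.4 to 15.1%, and that of Hoxc 32.7 to 35.5% against 28.9 to 34.4%, and both overlapped.

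**Figure D4:**
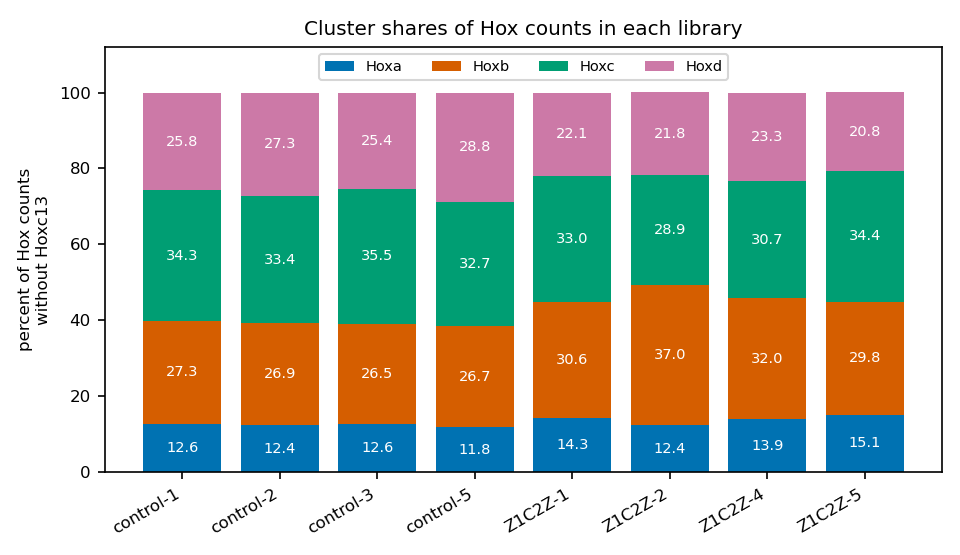
Share of each cluster in the Hox counts of each library, Hoxc13 left out, in percent. Hoxb is at 26.5 to 27.3% in the control libraries and 29.8 to 37.0% in the Z1C2Z libraries.

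Hoxc8 and Hoxb7, chosen after their values were seen, were the most abundant genes of their clusters per kb in control. Hoxc8 was at 35.0, 32.3, 34.2 and 27.0 CPM in control and 35.3, 34.2, 37.4 and 37.4 CPM in Z1C2Z, and Hoxb7 at 13.4, 10.2, 11.0 and 8.96 CPM and 14.5, 23.2, 17.6 and 12.9 CPM. Both genes overlapped between the groups.

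By paralog number, the central genes (paralogs 4 to 8) had a median log2 fold change of 0.39 over 15 genes, the anterior genes (1 to 3) of 0.09 over 6, and the posterior genes (9 to 13) of 0.21 over 8. The 3 genes of paralog 6 were all above 0, with a median of 0.88, and the 3 of paralog 5 with a median of 0.49. Of the 4 genes of paralog 4, 3 were below 0. Among genes that were not called, chosen after their values were seen, Hoxc10 had a log2 fold change of 1.14 (SE 0.43; edgeR adjusted p = 0.124) at 0.178 to 1.11 CPM, Hoxa6 of 0.88 (SE 0.33; edgeR adjusted p = 0.122) and Hoxb7 of 0.65 (SE 0.20; edgeR adjusted p = 0.0743). Hoxc10 shares 166 exon bases with Hoxc5 on the same strand. Apart from these 3 genes and Hoxb8, Hoxb2 and Hoxa7 above, the uncalled genes lay between -0.26 (Hoxd3) and 0.49 (Hoxb5).

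Markers of some other cell types, though not of all those listed, differed between the groups. Of 17 hair shaft and matrix genes, 15 were called higher (88.2%, against 4.28% of all genes) and all 17 were above 0, with a median log2 fold change of 3.33. The summed level of the list was 115 to 477 CPM in control and 554 to 4140 CPM in Z1C2Z, and none of its defining keratins was at 0. Foxn1, a transcription factor of the hair follicle, went from 6.34 ± 3.50 to 30.6 ± 13.5 CPM (SD, n = 4), with a log2 fold change of 2.26 (SE 0.47; edgeR adjusted p = 0.0315). The hair keratin gene Krt85 had a log2 fold change of 2.70 (SE 0.57; edgeR adjusted p = 0.0319). The 8 samples stood in the same order by Hoxc13 and by the summed hair list, from control-5 through control-1, control-2, control-3, Z1C2Z-5, Z1C2Z-1 and Z1C2Z-4 to Z1C2Z-2. By Hoxb6 the order was the same except that control-2 and control-3 changed places, as did Z1C2Z-5 and Z1C2Z-1. The called genes Hoxb3 and Hoxa5 did not keep the hair order within Z1C2Z. Hoxb3 was highest in Z1C2Z-1 (19.4 CPM), and Hoxa5 was lowest in Z1C2Z-1 (9.64 CPM) and highest in Z1C2Z-4 (12.0 CPM). The part of the hair list in the Hox results was not tested.

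**Figure D5:**
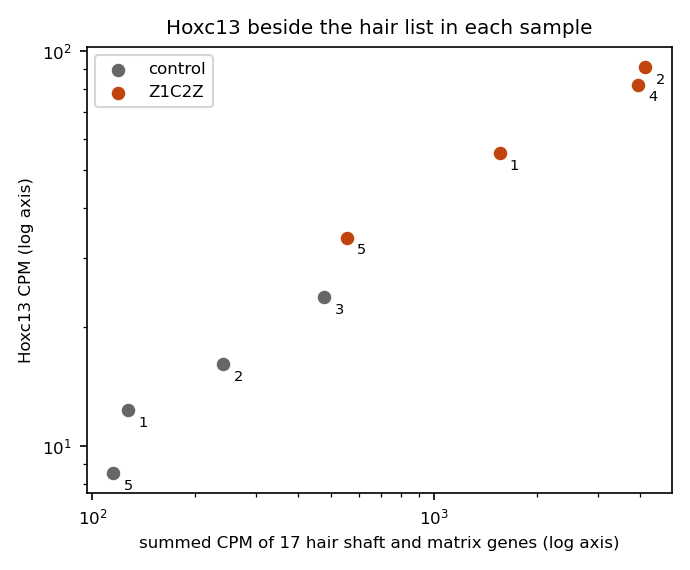
Hoxc13 CPM against the summed CPM of 17 hair shaft and matrix genes in each wound sample (both axes log), with points numbered as in the labels. The control samples reach 477 CPM on the hair axis and the Z1C2Z samples start at 554 CPM, and Hoxc13 follows the same order.

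Of 8 dermal papilla genes, Bmp4 and Rspo2 were called higher (25.0%, against 4.28% of all genes). The defining markers Corin (log2 fold change 0.80, edgeR adjusted p = 0.0897) and Alx4 (0.60, edgeR adjusted p = 0.276) were not called. Sox18, at -0.71 (edgeR adjusted p = 0.183), was the 1 gene below 0. The list summed to 159 to 171 CPM in control and 174 to 192 CPM in Z1C2Z. Enpp2 (means of 65.6 and 65.8 CPM) and Trps1 (61.9 and 71.9 CPM) made up much of these sums. Of 9 dermal fibroblast genes, Dcn, Lum, Prrx1 and Twist2 were called lower (44.4%, against 3.85% of all genes). All 9 were below 0, with sums of 56200 to 79600 CPM in control and 44200 to 61600 CPM in Z1C2Z. Of 12 skeletal muscle genes, Acta1, Myh1 and Myh2 were called lower (25.0%, against 3.85% of all genes). The sums were 3810 to 7190 CPM in control and 3260 to 3660 CPM in Z1C2Z. No gene of the keratinocyte, leukocyte, endothelial or adipocyte lists was called by edgeR. At an unadjusted p under 0.05 it gave 0 of 7, 3 of 9, 3 of 6 and 3 of 5, all lower, where 15.2% of all genes were lower. DESeq2, which called more genes of the whole table lower than edgeR (counts below), called 0, 2, 2 and 2 genes of these lists lower. No defining marker of these lists was at 0 in any group, and their part in the Hox results was not tested.

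Hox proteins bind DNA together with the TALE cofactors of the Pbx, Meis and Pknox families. None of the 9 TALE genes was called by edgeR. DESeq2, which called more genes of the whole table higher than edgeR (counts below), called 1 higher. At an unadjusted p under 0.05 edgeR gave 2 higher (22.2%, against 12.8% of all genes) and 2 lower (22.2%, against 15.2%). Of the 9, 3 had a log2 fold change above 0 and 6 below, with a median of -0.19. Every Z1C2Z sample lay above every control in 2 of them (22.2%, against 8.45% of all genes). In 2 others every Z1C2Z sample lay below (22.2%, against 8.82%). Meis1, among the 2 higher, was at 8.23 ± 1.45 CPM in control and 12.2 ± 1.48 CPM in Z1C2Z (SD, n = 4), with a log2 fold change of 0.57 (SE 0.16; edgeR adjusted p = 0.0585). Pbx2, among the TALE genes with the highest CPM, had a log2 fold change of 0.11 (SE 0.10; edgeR adjusted p = 0.495). Polycomb and Trithorax proteins keep Hox clusters silent or active. Of 22 such genes, 2 were called higher (9.09%, against 4.28% of all genes) and 0 lower (3.85% of all genes) by edgeR. Cbx2, a chromobox protein of Polycomb complexes, went from 11.8 ± 1.74 to 18.4 ± 1.13 CPM (log2 fold change 0.64, SE 0.13; edgeR adjusted p = 0.0303). Of the Cdx factors, upstream of Hox genes in the embryo, only Cdx4 was in the table, and it did not pass the filter.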

How the data were processed

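Total RNA from 4 control and 4 Z1C2Z wound skin samples was sequenced after removal of rRNA, with dUTP in the second strand. The authors deposited raw counts per gene, with no normalization. The aligner, counting program, genome build, annotation and strand setting were not given in the sources used here. The labels name Trizol and the methods another RNA kit. Samples were grouped by their titles, and 0 per-sample columns were left unused.

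Genes kept by filterByExpr were normalized by TMM and tested with the quasi-likelihood test of edgeR 4.0.16 (limma 3.58.1, R 4.3.3) in a 2-group design, with Benjamini-Hochberg adjustment over 15147 genes. SEs were derived from the F statistic. DESeq2 1.42.0, other normalization, filters, a replicate block and leaving samples out were alternatives. Single genes also had an exact permutation test. Totals were 28856790 to 38974888 counts, so genes under about 10 counts carry large counting error. The edgeR script was tested on simulated data for this comparison: of 200 genes changed by 2 on the log2 scale, 191 were recovered among 15053 genes, with 11 false calls. Smaller changes, such as those of Hoxb6 (0.94), Hoxa5 (0.80) and Hoxb3 (0.55), were not simulated. Variation shared by many genes of a library was not simulated either. Libraries differed by more than sampling noise (smallest chi-square per degree of freedom of any pair 21.7).

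Values in every sample were given for Hox genes that were called or whose groups did not overlap, for Hoxc13 and for the gene of each cluster with the highest mean CPM over all samples (Hoxa5, Hoxb3, Hoxc13 and Hoxd8). The Hox genes and all lists were chosen with earlier results of these data known, and the list of other Homeobox genes, from the deposited family column, was added after the table was seen. Sequences, lengths and overlaps came from GRCm38 with GENCODE M21, which may not be the authors' annotation. Some genes and 1 sequence are not reported here.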

Additional observations from a re-analysis of the deposited data

Results flagged for a closer look

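Hoxc9 in Z1C2Z-2 stood apart from its group, at 3.11 CPM where the other Z1C2Z samples were at up to 3.69 CPM. The gap was 0.861 of the range of the group, above Dixon's critical value for 4 samples at the 95% level. It was the 1 flag among 58 groups of 4 samples, and chance flags about 1 in 20 groups.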

How the results depend on the processing

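The 4 called genes kept a log2 fold change above 0 in all 56 of their alternative values, and 25 of these passed the threshold. Hox genes called higher were 4, and 1 with the replicate block, 0 without Z1C2Z-2 and Z1C2Z-4, 1 with a log2 fold change over 1 required and 11 at an unadjusted p. Leaving out each replicate gave 0 to 5. Over all genes, 648 higher and 583 lower became 1243 and 1513 by DESeq2, 301 and 253 with the block, 0 and 0 without Z1C2Z-2 and Z1C2Z-4, 326 and 189 with the fold rule, and 1946 and 2302 at an unadjusted p. Leaving out each replicate gave 0 to 886 higher and 0 to 868 lower. Without Z1C2Z-2 and Z1C2Z-4, edgeR gave 973 higher and 1007 lower genes at an unadjusted p. The cause was not tested.

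Whether the replicate numbers pair the samples was not given in the sources used here. The correlation of deviations was -0.101, -0.0623 and 0.323 for numbers 1, 2 and 5, and so few pairs cannot decide it. In the block fit, control-3 and Z1C2Z-4 carried no weight and Hoxc13 alone was called (2.22, edgeR adjusted p = 0.00207).

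Of the lists, hair genes higher (15) were 0 to 17 with a replicate left out. Dermal papilla genes higher (2) were 0 to 2, fibroblast genes lower (4) 0 to 5, muscle genes lower (3) 0 to 5 and Polycomb and Trithorax genes higher (2) 0 to 3. Without Z1C2Z-2 and Z1C2Z-4 each was 0. By DESeq2 the fibroblast, muscle and Polycomb counts were 7, 6 and 4, with the block 0, 2 and 0, with the fold rule 1, 0 and 0, and at an unadjusted p 8, 7 and 5. The papilla count was 1 with no low-count filter, 1 with the block and 5 at an unadjusted p.

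Small values near 0 changed sign. With the block, Hoxa2 was 0.17 and Hoxa4 0.02. Without Z1C2Z-2 and Z1C2Z-4, Hoxa2 was 0.17, Hoxa4 0.02, Hoxc4 0.04, Hoxd3 0.04 and Hoxd9 -0.04. With a replicate left out, Hoxa2 ran from -0.18 to 0.13, Hoxa4 from -0.25 to 0.15, Hoxa10 from -0.02 to 0.40, Hoxd4 from -0.13 to 0.14, Hoxd8 from -0.06 to 0.02 and Hoxd10 from -0.29 to 0.31. Low-count members, such as Hoxc10, are limited by depth.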

Other observations

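The homeobox is shared by many transcription factors outside the Hox clusters. Of 111 other genes that the deposited table places in the Homeobox family, 68 were tested, and the median log2 fold change was -0.03. By edgeR 6 were called higher (8.82%, against 4.28% of all genes) and 4 lower (5.88%, against 3.85%). The 6 higher genes were Msx2 (2.09), Dlx4 (1.92), Dlx3 (1.55), Dlx2 (1.29), Msx1 (1.22) and Irx4 (0.82), as log2 fold changes. Msx2 and Dlx3, both factors of the hair follicle, are also in the hair list. Msx2 was at 12.3 ± 4.64 CPM in control and 52.5 ± 19.0 CPM in Z1C2Z (SD, n = 4), with no overlap. The 4 lower genes were Dbx2 (-2.98), Prrx1 (-0.58), Cers2 (-0.53) and Zhx2 (-0.35). Cers2 is a ceramide synthase, and Prrx1, a mesenchymal factor, is also in the dermal fibroblast list. Without Z1C2Z-2 and Z1C2Z-4 none of these 10 genes, nor any other gene of the table, was called.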
